A study of Mus musculus with 3 samples.

Results

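A set of 406 cells was drawn from 12275 cell barcodes of digested mouse diaphragm by the unique molecular identifiers (UMIs, each marking 1 captured mRNA molecule) of 10 genes. A selected cell held at least 5 UMIs of the lysozyme gene Lyz2, at least 3 UMIs of Mmp12, Retnla and Ear2 together, fewer than 2 of Folr2 and Cd163 together, fewer than 5 of Prg4, and none of Pdgfra, Cd79a and Flt3. These counts chose the cells, so the levels of the 10 genes describe the choice and are no finding about the cells. The set was named for Mmp12 and Retnla macrophages, with Mmp12, Retnla, Dcstamp and Ear2 as markers, and of these only Dcstamp was left out of the rule.

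The study asked how diet-induced obesity and loss of thrombospondin-1 change the cells of the diaphragm, and its scRNA-Seq covered 3 libraries of mononuclear cells. WT CD came from C57Bl/6J mice on control diet, WT HFD from C57Bl/6J mice on high-fat diet, and KO HFD from mice of genotype B6.129S2-Thbs1tm1Hyn/J on high-fat diet. Lipid gave 45% of the energy of the high-fat diet. The mice were male, every diet lasted 6 months, and the KO is germ line, so every cell type carries it. The costal muscle was digested with collagenase II, dead cells that took up DAPI were removed by flow cytometry, and 10x Genomics 3′ V3.1 libraries were made. Each group held 2 mice, with no label that ties a barcode to a mouse, so each group is 1 sample. No difference between libraries therefore has a replicate check, no test was made, and all intervals (95%) cover counting error only.

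Tissue macrophages descend from embryonic precursors or from blood monocytes, and in many tissues long-lived cells with receptors such as LYVE1 and the folate receptor FOLR2 lie beside monocyte-derived cells that carry the chemokine receptor CCR2 and MHC class II. Retnla encodes RELMα, a secreted protein induced by IL-4 and IL-13 through STAT6 in mouse macrophages. Mmp12 encodes macrophage elastase, a secreted metalloproteinase that cleaves elastin. Ear2 encodes a secreted ribonuclease of the eosinophil-associated RNase A family, and Dcstamp a membrane protein needed for fusion of osteoclasts and macrophage giant cells. In obesity, macrophages that take up lipid switch on a set of genes around the lipid receptor gene Trem2.

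The libraries were close in depth, with 34312860 UMIs over 4132 barcodes in WT CD, 31967976 over 3774 in WT HFD and 36478779 over 4369 in KO HFD. The selected cells numbered 112 with 1551699 UMIs in WT CD, 110 with 1546252 in WT HFD and 184 with 2739239 in KO HFD. Their median depth was 13165, 13560.5 and 14086.5 UMIs per cell in the same order, against 7632.5, 8041.5 and 7554 over all barcodes. Selected cells were therefore deeper than the average barcode in every library, while their depth differed little between libraries. The median mitochondrial share was 2.75% in WT CD, 3.05% in WT HFD and 2.95% in KO HFD. Of all barcodes, 16 occurred in 2 libraries, and 1 of them was a selected cell, whose twin was not selected.

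Thbs1, the gene targeted in the KO, was detected in the selected cells of all 3 libraries. It stood at 89.6 counts per 1000000 UMIs (CPM; 75.3 to 106) in WT CD, 76.3 CPM (63.2 to 91.4) in WT HFD and 41.3 CPM (34 to 49.6) in KO HFD, from 139, 118 and 113 UMIs. Over all barcodes it was 136, 202 and 163 CPM. The KO HFD library was lowest among selected cells but above WT CD over all barcodes, and 24.5% of its selected cells held a Thbs1 UMI, against 14.3% in WT CD and 21.8% in WT HFD. In selected cells with Retnla and no Mmp12 UMI, WT HFD was lowest, at 76.7, 25.4 and 42.0 CPM in WT CD, WT HFD and KO HFD. Without mixed droplets (defined below) the levels were 84.5, 64.9 and 50.1 CPM, with KO HFD less than 1.5-fold below WT HFD. The libraries read the 3′ end of a transcript, and where the counted tag lies relative to the altered part of the allele is not given in the sources used here, so these counts do not check the KO label.

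The promoters of the genes that define the set are shown because Retnla, Mmp12 and Ear2 were counted together in the same cells. RefSeq (GRCm38.p6) gave the 250 bases before the start of 3 of the 4 marker genes, with 2 starts for Mmp12, and Dcstamp is only named. Capitals mark letters of motifs searched on both strands: TTC and GAA set apart by any 4 bases for STAT6, TTGCNNAA for C/EBP and TGANTCA for AP-1.
Retnla promoter, chr16:48842359-48842608, plus strand: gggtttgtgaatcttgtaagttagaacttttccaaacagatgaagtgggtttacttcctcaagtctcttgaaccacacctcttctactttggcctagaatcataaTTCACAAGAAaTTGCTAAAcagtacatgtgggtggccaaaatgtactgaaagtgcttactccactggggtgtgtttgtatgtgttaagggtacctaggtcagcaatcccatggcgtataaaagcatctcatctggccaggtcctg
Mmp12 promoter at the first start, chr9:7344147-7344396, plus strand: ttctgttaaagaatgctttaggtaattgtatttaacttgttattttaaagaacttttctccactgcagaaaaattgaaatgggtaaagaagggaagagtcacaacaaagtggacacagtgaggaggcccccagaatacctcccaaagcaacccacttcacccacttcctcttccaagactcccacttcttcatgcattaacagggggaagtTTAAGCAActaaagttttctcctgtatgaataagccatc
Mmp12 promoter at the second start, chr9:7347124-7347373, plus strand: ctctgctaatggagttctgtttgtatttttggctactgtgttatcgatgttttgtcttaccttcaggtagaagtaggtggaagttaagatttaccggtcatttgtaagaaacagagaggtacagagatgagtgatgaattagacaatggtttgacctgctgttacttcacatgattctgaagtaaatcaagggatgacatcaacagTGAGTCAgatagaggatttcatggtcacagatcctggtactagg
The Retnla window held TTCACAAGAA, 145 to 136 bases before the start, and TTGCTAAA 134 to 127 bases before it. Of 32851 mouse promoter windows of this length, 5.85% held the STAT6 letters, 9.56% the C/EBP letters and 6.75% the AP-1 letters. The first Mmp12 window held a C/EBP match on the minus strand, printed as TTAAGCAA, 39 to 32 bases before the start, and the second an AP-1 match, TGAGTCA, 44 to 38 bases before its start. The Ear2 window, at chr14:44102404-44102653, held TTGCACAA 90 to 83 bases before the start. None of the windows of Mmp12 and Ear2 held the STAT6 letters, and a match is a description of letters, not of binding.

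Retnla was by far the most abundant of the rule's inducible genes. It reached 19673 CPM in WT CD, 14170 in WT HFD and 18465 in KO HFD, and at least 1 UMI was found in 91.1, 78.2 and 80.4% of the selected cells. WT HFD was lowest and WT CD highest. Without mixed droplets KO HFD had the highest level, at 18797, 15732 and 20255 CPM in the same order of libraries. Among cells with Retnla and no Mmp12 KO HFD was also highest, at 22177, 18900 and 26741 CPM. Of the 406 cells, 70 held no Retnla UMI, 7 held 1 or 2, 19 held 3 to 9, 83 held 10 to 99 and 227 held 100 or more. The rule leaves out cells with 1 or 2 Retnla UMIs and no Mmp12 or Ear2, so the low number there is partly its doing.

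Mmp12 was found in a minority of the cells. It was 258 CPM (234 to 285) in WT CD, 693 (652 to 735) in WT HFD and 479 (454 to 506) in KO HFD, with a UMI in 25, 41.8 and 43.5% of selected cells. Both HFD libraries lay above WT CD in level and in share. At an equal depth of 3000 UMIs per cell the shares came to 16.3% of 104 cells in WT CD, 25.7% of 109 in WT HFD and 31.7% of 180 in KO HFD, shallower cells being dropped. Single cells carried much of the signal, since the highest cell held 18.5% of the Mmp12 UMIs in WT CD, 19% in WT HFD and 11.4% in KO HFD.

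Ear2 was 289 CPM in WT CD, 318 in WT HFD and 369 in KO HFD, and was found in 73.2, 73.6 and 85.3% of selected cells, and in 51.9, 51.4 and 54.4% at 3000 UMIs per cell. Dcstamp, which the rule did not use, was 36.7 CPM (27.8 to 47.6) in WT CD, 45.3 (35.3 to 57.2) in WT HFD and 59.1 (50.4 to 69.0) in KO HFD, in 22.3, 20.9 and 35.3% of cells, or 12.5, 6.42 and 15.6% at 3000 UMIs per cell. For Dcstamp KO HFD was highest, and the WT HFD interval overlapped those of both WT CD and KO HFD. In cells with Mmp12 WT CD was highest, at 85.6, 67.3 and 77.9 CPM. Lyz2 itself was near level, at 12462, 12556 and 12017 CPM.

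**Figure D1:**
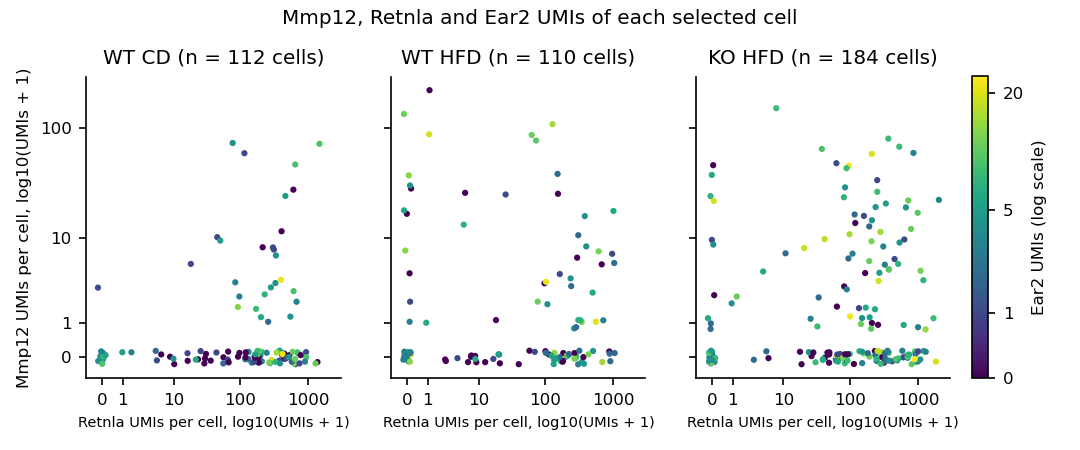
UMIs of Retnla (horizontal) and Mmp12 (vertical) in each selected cell, 1 panel per library, on log10(UMIs + 1) axes with a small random offset, coloured by Ear2 UMIs. The 203 cells with Retnla and no Mmp12 lie along the bottom, and the 70 cells without Retnla form the column at the left.

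Outside the set, and without a test of the source, free RNA or mixed droplets may set the background of these genes. B cells, which should make none of them, held a Retnla UMI in 3.46% of 635 cells and no Mmp12, Ear2 or Dcstamp UMI, which for each of these, at 3 counts of the total, allows a share of cells with a UMI of up to 0.472%, at a median of 7846 UMIs per cell. Of 263 macrophages chosen by Folr2 and Cd163 (at least 2 UMIs together, otherwise the same rule with Mmp12, Retnla and Ear2 under 3 together), 10.6% held a Retnla UMI, 2.66% an Ear2 UMI, 0.380% a Dcstamp UMI and none an Mmp12 UMI, at a median of 7008 UMIs. A further 211 cells passed both the Mmp12, Retnla and Ear2 count and the Folr2 and Cd163 count, and are called double-positive cells. In these, 93.8% held Retnla at 15893 CPM pooled over the libraries, 19.0% Mmp12 and 13.3% Dcstamp. Retnla at this level was thus not particular to the selected cells: the rule left out the double-positive cells only for Folr2 and Cd163. Among dendritic cells (1 or more Flt3 UMIs) 7.87% held Retnla, for a pooled level of 1648 CPM.

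The rule's edges were populated. With the other conditions met, 23 cells held 2 UMIs of Mmp12, Retnla and Ear2 together and stayed out, and 29 held 3 and were taken, 1 of them in WT CD, 13 in WT HFD and 15 in KO HFD. The 50 cells at 3 to 5 UMIs had 47.1 CPM of Retnla, 245 CPM of Ace and 657 CPM of Plac8, both monocyte genes, and 243 CPM of Lyz1. The 72 cells at 1 or 2 UMIs had 39.1, 128, 636 and 379 CPM of the same genes. The 356 cells above 5 UMIs had 19029, 3.69, 6.84 and 2987 CPM. The Retnla levels of these 3 groups of cells follow from the rule. For Ace, Plac8 and Lyz1, the cells just inside lay nearer to those just outside than to the rest of the set. For Folr2 and Cd163 together, 79 selected cells held 1 UMI and 33 cells held 2 and were left out.

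The selected cells fell into 3 groups by which of the rule's genes were found. Mmp12 was present in 154 cells, 117 of them with Retnla and Ear2 as well. A further 203 cells held Retnla without Mmp12, 138 of them with Ear2. The last 49 cells passed on Ear2 alone, with 9 in WT CD, 14 in WT HFD and 26 in KO HFD. Mmp12 cells made up 25% (17.3 to 34.1) of the selected cells in WT CD, 41.8% (32.5 to 51.6) in WT HFD and 43.5% (36.2 to 51.0) in KO HFD.

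The cells with Ear2 alone did not bear out the name. Their Lyz1 level, pooled over libraries, was 27.7 CPM, against 2369 in the Mmp12 cells and 3716 in the cells with Retnla and no Mmp12. All 10 of 10 nonclassical monocyte markers were at least 2-fold higher in them than in the other selected cells, where 8.84% of 2750 genes were higher by that fold and 3.67% lower. These markers are genes of the patrolling blood monocyte. A marker under 50 CPM in the other selected cells was compared only through its level in the Ear2-only cells, so the minimum set its direction. Ace, Gngt2, Itgal, Treml4, Spn, Pglyrp1, Adgre4 and Cd300e were such markers, and for these the count of higher markers carries no weight. Ace, angiotensin-converting enzyme, was 259 CPM against 1.06 and 3.51. Gngt2, a G protein gamma subunit, was 676 CPM against 25.7 and 12.5. Itgal, the integrin alpha chain of LFA-1, was 372 CPM against 5.99 and 14. The summed level of the 10 markers in the Ear2-only cells was 3242 CPM in WT CD, 2405 in WT HFD and 2338 in KO HFD, while the other selected cells lay between 108 and 148 CPM. At least 3 UMIs of Ly6c2, Plac8 and Ace together were held by 26 of the 49 (53.1%), against 1 of 154 and 3 of 203 in the other groups. These 49 cells are kept in the values below, and the lipid genes are also given for the 336 selected cells with Retnla.

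Mmp12 cells differed from the cells with Retnla and no Mmp12 in few genes. Of 2422 genes compared, 26 were at least 2-fold higher (1.07%) and 27 lower (1.11%). Of 13 lipid-associated macrophage genes compared of 15 listed, 7 were higher and none lower, with a median log2 ratio of 1.003 against 0.07 over all genes. Pooled over the libraries, Fabp4, a fatty-acid binding protein, was 97.7 CPM in Mmp12 cells and 11.7 in the others. Trem2 was 128 and 29.6 CPM, the fatty-acid transporter gene Cd36 424 and 149 CPM, and Lgals3, encoding galectin-3, 3242 and 1477 CPM. Dcstamp was higher with Mmp12, at 76.1 against 27.7 CPM. The complement gene C1qa ran the other way, at 642 against 1417 CPM, as did the platelet factor 4 chemokine gene Pf4, at 191 against 599 CPM. The groups draw differently on the libraries (28, 46 and 80 Mmp12 cells in WT CD, WT HFD and KO HFD against 75, 50 and 78), and the pooled contrast did not hold for every gene in every library. In WT CD, Trem2 was 29.9 CPM in Mmp12 cells and 30.7 CPM in the others, and Fabp4 7.96 and 5.11 CPM. Cd63, a lysosomal tetraspanin, was lower in the Mmp12 cells of WT CD (11.9 against 59.3 CPM) and higher in those of WT HFD (303 against 112 CPM). Cd36, Lgals3 and Dcstamp were higher, and C1qa and Pf4 lower, in the Mmp12 cells of each library. For Dcstamp the values by library were 85.6, 67.3 and 77.9 CPM against 13.3, 23.7 and 44 CPM. The Mmp12 cells were also deeper, with a median of 17831.5 UMIs against 12194, and finding an Mmp12 UMI is itself easier in a deep cell.

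By library, the selected cells were 2.71% (2.24 to 3.25) of all barcodes in WT CD, 2.91% (2.40 to 3.50) in WT HFD and 4.21% (3.64 to 4.85) in KO HFD. KO HFD lay 1.30 percentage points (0.488 to 2.10) above WT HFD, while WT HFD and WT CD differed by 0.204 points (-0.526 to 0.945). That direction turned under 4 other settings. With cells thinned to 3000 UMIs the shares were 3.53% in WT CD and 3.34% in WT HFD, and without mixed droplets (barcodes with at least 2 UMIs of endothelial, muscle stem cell, mesothelial, T and NK or B cell markers, or above the 99th percentile of UMIs of their library) 3.33 and 3.16%. They were 2.57 and 2.52% at 5 or more UMIs of Mmp12, Retnla and Ear2, and 2.47 and 2.28% with at least 1 Retnla UMI. Among barcodes with at least 5 Lyz2 UMIs and no Pdgfra, Cd79a or Flt3, the order changed. The selected cells were then 39.9% (34.1 to 45.8) of 281 in WT CD, 23.9% (20.1 to 28.1) of 460 in WT HFD and 33.6% (29.7 to 37.8) of 547 in KO HFD. WT HFD lay 15.9 points below WT CD (-22.8 to -9.04), and KO HFD 9.72 points above WT HFD (4.11 to 15.2).

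The other Lyz2 barcodes moved the denominator. Folr2 Cd163 macrophages numbered 41, 107 and 115 (14.6, 23.3 and 21.0% of Lyz2 barcodes), and cells with at least 5 Prg4 UMIs, here called cavity-type macrophages, 7, 50 and 15 (2.49, 10.9 and 2.74%). Double-positive cells were 50, 78 and 83 (17.8, 17.0 and 15.2%). Monocytes, with at least 3 UMIs of Ly6c2, Plac8 and Ace, were 16, 18 and 43. All shares are of captured barcodes, so with 1 library per group the diet or genotype cannot be told apart from the yield of the digest.

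**Figure D2:**
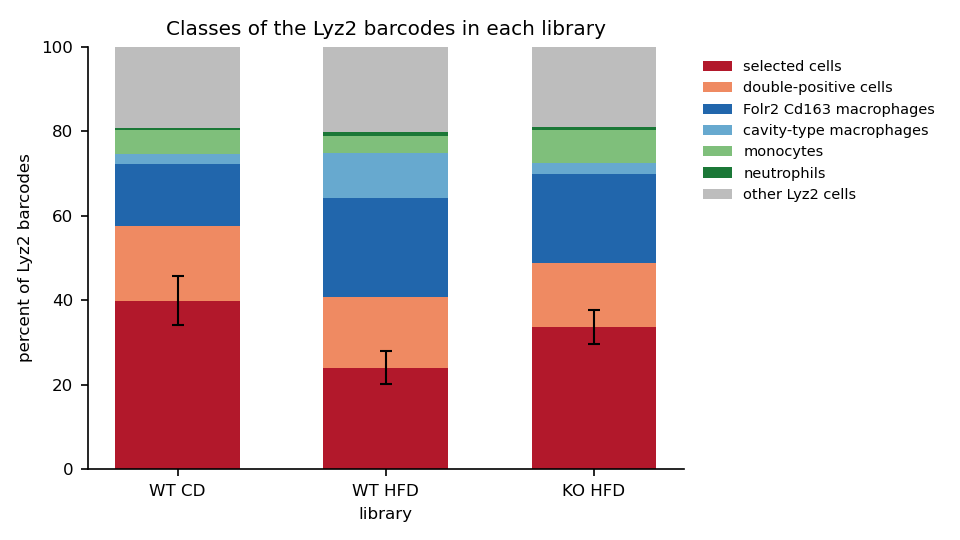
Stacked bars give the share of the Lyz2 barcodes (percent, vertical) in each class for each of the 3 libraries (horizontal). The error bar is the exact 95% interval of the selected share, which was 39.9, 23.9 and 33.6%.

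Folr2 Cd163 macrophages were the reference for what the selected cells shared with other macrophages. Levels are means of the 3 library CPMs, which weigh the libraries alike, and genes with at least 50 CPM on either side were compared, outside the 10 rule genes. Of 2734 genes, 227 (8.3%) were at least 2-fold higher in the selected cells and 337 (12.3%) lower. Scaling by median of ratios moved the median of all genes from 0.09 to 0.23 (log2) and gave 303 higher and 282 lower, so the balance of higher and lower calls depends on the scaling. Because the cells were chosen by genes of the same counts, these values describe the selected cells and carry no test.

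The 10 genes furthest above the Folr2 Cd163 macrophages had mixed functions. Fn1, fibronectin, was 2430.3 CPM in the selected cells and 41.8 in Folr2 Cd163 macrophages (58.1-fold), and by library 2584, 2242 and 2466 CPM in WT CD, WT HFD and KO HFD. Lyz1, the second mouse lysozyme gene, was 2879.9 against 109 CPM (26.5-fold). The lysozyme genes Lyz1 and Lyz2 are close in sequence, so reads may be split between them. The metalloproteinase gene Mmp19 was 171 against 7.27 CPM, and Sdc1, the heparan sulfate proteoglycan syndecan-1, 54.2 against 2.44 CPM. Of 4 metalloproteinase and inhibitor genes compared, of 12 listed, Mmp19 and Adam8 were higher and Mmp9 (log2 ratio -3.53) and Timp2 (-1.49) lower.

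Among signalling and metabolic genes, Malt1, a paracaspase of NF-κB signalling, was 292 against 13.9 CPM. Aldh1a2, which makes retinoic acid, was 148 against 7.39 CPM. The cystine transporter gene Slc7a11 was 113 against 5.94 CPM. Areg, the EGF receptor ligand amphiregulin, was 112 against 6.12 CPM. These 4 genes were higher in the selected cells in each library. The 2 other leading genes rested on few cells. Mucl1 had UMIs in 5 cells of WT CD, 5 of WT HFD and 4 of KO HFD, at 212 CPM against a count of 0, which makes it at least 154-fold higher on a floor of 3 UMIs. Plac8, a monocyte gene, had UMIs in 8, 9 and 16 cells, and 259 of its UMIs lay in cells with Ear2 alone, against 57 in all cells with Retnla.

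Among the 10 genes furthest below the Folr2 Cd163 macrophages were receptors of resident macrophages. Ccl8, a monocyte chemokine, had 1 UMI in all selected cells against 639.8 CPM in Folr2 Cd163 macrophages. The C-type lectin gene Cd209f was 0.581 against 338 CPM, the hyaluronan receptor gene Lyve1 2.73 against 411 CPM, and the scavenger receptor gene Colec12 0.768 against 70.0 CPM. Vsig4, a complement receptor, had no UMI in 406 cells against 52.3 CPM. The others were Cxcl13, Cd209g, Ctla2b, Barx2 and Tcim.

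Gene lists are given by the members with at least 50 CPM on either side. Over all 2734 genes 8.3% were at least 2-fold higher and 12.3% lower. A member below 50 CPM in the selected cells enters only through a higher level in the reference, so the minimum sets its direction. All 10 resident macrophage receptor genes were at least 2-fold lower, with a median log2 ratio of -5.08 (Vsig4 at its bound) against 0.09 over all genes. The mannose receptor gene Mrc1, at 269 against 909.6 CPM, and the coagulation factor gene F13a1, at 293 against 845 CPM, were the least reduced. Of 12 general macrophage identity genes, 10 were lower and none higher (median -1.94). Csf1r, the receptor for the macrophage growth factor CSF1, was 254 against 635 CPM, Adgre1 (F4/80) 105 against 255 CPM and C1qa 999 against 5446 CPM, while Cd68 was 258 against 326 CPM. Mertk, at 5.46 CPM, and the Fc receptor gene Fcgr1, at 11.3 CPM, were low in level. All 12 were detected in the selected cells, and all but Cd68 and Cd14 were at least 2-fold lower than in the reference.

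All 9 immediate early and heat shock genes were at least 2-fold lower (median -2.12), and 8 of 9 after median-of-ratios scaling. Egr1, an early growth response factor, was 180.2 against 1518 CPM and the chaperone gene Hspa1a 279 against 2231 CPM. These genes respond to tissue digestion, and the part of handling in this difference was not tested. The 4 membrane-spanning 4A genes compared, of 7 listed, were all lower (median -3.44). Of these, Ms4a6b, Ms4a6d and Ms4a7 lay under 50 CPM in the selected cells, so the minimum set their direction. Ms4a6c, at 64.8 CPM, was above it. Over all 2734 genes 12.3% were lower.

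Chemokine genes split by member. Of 14 compared, 8 were lower and 2 higher (median -1.45), beside 12.3% lower and 8.3% higher over all genes. Ccl6, at 2297 against 785 CPM, and Ccl9, at 1024 against 437 CPM, both CC chemokines that attract myeloid cells, were the higher pair. The most abundant chemokine gene, the neutrophil attractant Cxcl2, was 5221 against 4477 CPM. Ccr2, the receptor that draws monocytes to CCL2, was 548 against 143 CPM and of the same order as in monocytes (529 CPM), and Ccr1 was 88.8 against 32.5 CPM.

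MHC class II genes were high in both. Of 8, 2 were at least 2-fold higher in the selected cells and none lower, beside 8.3% higher and 12.3% lower over all genes. The peptide-loading genes H2-DMb2 (80.2 against 10.0 CPM) and H2-DMa (988 against 492 CPM) were the pair past that fold, H2-DMa only just. H2-Aa was 5242 against 5087 CPM, and in monocytes 2903 CPM.

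Of 13 lipid-associated macrophage genes compared, 2 were at least 2-fold higher and 4 lower in the selected cells, and 7 passed in neither direction (median 0.30, against 0.09 over all genes, of which 8.3% were higher and 12.3% lower). Lpl, lipoprotein lipase, was 1197 against 137 CPM, and Lgals3 2264 against 650.2 CPM. Apoe, apolipoprotein E, was 825 against 13599.8 CPM and Trem2 77.5 against 209.6 CPM. Of 6 fatty-acid and lipid response genes compared, of 11 listed, 3 were higher and 1 lower. The higher genes were Lpl, the cholesterol exporter gene Abcg1 (60.3 against 21.6 CPM) and the lipid droplet gene Hilpda (58.9 against 24.6 CPM), and the lower gene was Abca1, another cholesterol exporter (31.9 against 178 CPM). Of 5 IL-4 and IL-13 response genes compared, of 13 listed, none was higher and 3 were lower, so the high Retnla came without a 2-fold higher level of any of those 5.

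Against all other leukocytes summed, 197 of 2559 genes (7.7%) were at least 2-fold higher in the selected cells and 164 (6.41%) lower. Over 3803 genes the log2 CPM profile of the selected cells correlated with that of the double-positive cells at Pearson r = 0.940, with the remaining Lyz2 cells at 0.927, dendritic cells at 0.872, Folr2 Cd163 macrophages at 0.864, monocytes at 0.852 and cavity-type macrophages at 0.775. B cells stood at 0.623 and T and NK cells at 0.554. These are correlations across genes of the same 3 libraries, genes are not independent replicates, and the classes differ in depth, from a median of 5427 UMIs per cell in T and NK cells to 13833.5 in cavity-type macrophages. The double-positive cells were thus closest in profile, with 8.23% of genes 2-fold apart, against 20.1% for the Folr2 Cd163 macrophages.

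The 20 genes that led every other leukocyte class did so by small margins, with the double-positive cells second for most. Sdc1 led by 2.17-fold, with 54.2 CPM against 25 in the double-positive cells. Adam8, a membrane metalloproteinase, was 154 against 78.4 CPM, Mmp19 171 against 90.2 and Aldh1a2 148 against 82.5. Lpl was 1197 against 706 CPM and Lyz1 2879.9 against 1778. Il1rn, the interleukin-1 receptor antagonist, was 144 CPM, with monocytes next at 82. The natural killer and T cell adhesion gene Cd226 was 143 CPM. The others were Rras2, Chn2, Tnip3, Sept9, Socs6, Ahcyl2, Mthfd1, Atp6v0a2, Malt1, Unc119, Flrt3 and Hopx. With the double-positive cells set aside, Mmp19 led the next class by 6.35-fold, Aldh1a2 by 6.16-fold, Lpl by 5.18-fold and Lyz1 by 4.26-fold. Fn1 was not among them, since cavity-type macrophages held 5162 CPM.

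**Figure D3:**
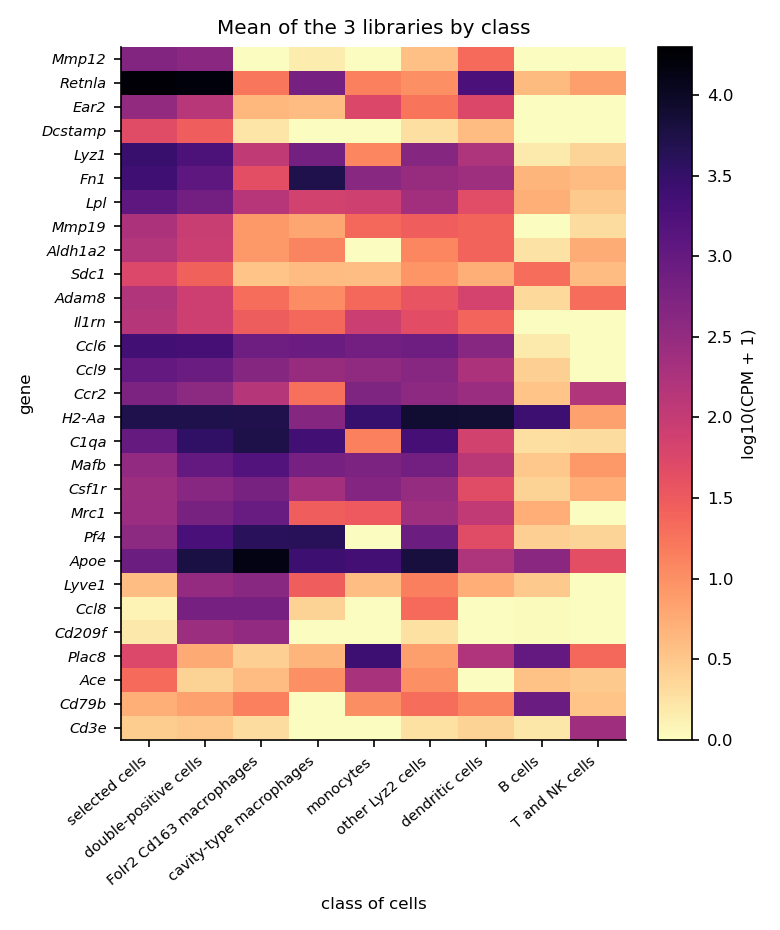
Mean CPM of the 3 libraries for the marker genes and genes of the groups described (rows), in the selected cells and 8 other leukocyte classes (columns), coloured on a log10(CPM + 1) scale. Retnla is near its top in both the selected and the double-positive cells, while Ccl8, Cd209f and Lyve1 are high in the double-positive and Folr2 Cd163 cells and near 0 in the selected cells.

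Markers of eosinophils, neutrophils, mast cells and adipocytes were low in the selected cells. The 5 eosinophil markers summed to 2.88 CPM over the mean of the libraries, with Siglecf the only one detected and Ccr3, Il5ra, Epx and Prg2 at 0, so the Ear2 counts came without the other markers of eosinophils. The 8 neutrophil markers summed to 4.41 CPM, with 5 at 0, and the 5 mast cell markers to 4.11 CPM. The 4 adipocyte genes summed to 0.553 CPM, with Plin1 at 0.

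Of the 406 selected cells, 102 (25.1%) met the rule for mixed droplets, at 24.1% in WT CD, 29.1% in WT HFD and 23.4% in KO HFD. B cell markers marked 58 of them (14.3% of the selected cells), and 30 lay above the 99th percentile of UMIs. The 5 markers of fibro-adipogenic progenitors (FAPs, the fibroblast-like cells of muscle), of which Dcn was most abundant, summed to 145 CPM in WT CD, 97.7 in WT HFD and 15.7 in KO HFD. The highest single cell held 94.8% of the Dcn UMIs in WT CD and 73% in WT HFD. The 3 mesothelial markers summed to 0, 29.7 and 0.365 CPM, and the 7 T and NK cell markers to 47.7, 0.647 and 11.0 CPM. The 5 B cell markers summed to 52.8, 44.0 and 36.5 CPM, nearly all Ighm, with Ms4a1 and Pax5 at 0. KO HFD was lowest for FAP markers, and at least 2 mesothelial UMIs were held by 2 selected cells, both in WT HFD. At least 10 UMIs of Dcn, Col1a1 and Col3a1 were held by 1 selected cell in WT CD, 2 in WT HFD and none in KO HFD.

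The diet comparison set the selected cells of WT HFD beside those of WT CD. Among 2515 genes that reached 50 CPM on either side, 116 (4.61%) were at least 1.5-fold higher in WT HFD and 52 (2.07%) lower. The median of all genes was 0.09 (log2), and median-of-ratios scaling gave 80 higher and 78 lower, so the excess of higher genes depends on the scaling.

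Lipid-associated macrophage genes were higher on high-fat diet. Of the 13 of 15 with at least 50 CPM, 10 were at least 1.5-fold higher in WT HFD and none lower (median 1.08, against 0.09 over all genes), and 8 after median-of-ratios scaling. The list as a whole summed to 4631 CPM in WT CD, 8211 in WT HFD and 8100 in KO HFD. For each of the 15 genes WT CD was the lowest of the 3 libraries. Monocyte markers moved with them: 1 of 2 classical markers compared (Plac8; 18.7, 86.7 and 55.9 CPM) and 1 of 2 nonclassical markers (Gngt2) were at least 1.5-fold higher in WT HFD. In the cells with Ear2 alone, 5 of 14 lipid-associated genes were at least 2-fold higher than in the other selected cells and none lower, where 8.84% of all genes were higher. The part of these cells in the diet difference was not tested.

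Fabp4 was 8.38 CPM in WT CD, 116 in WT HFD and 75.2 in KO HFD (3.80 on the log2 scale, 2.99 to 4.73, for WT HFD against WT CD). Trem2 was 31.6 CPM in WT CD, 89.9 in WT HFD and 111 in KO HFD (1.51 on the log2 scale, 1.03 to 2.01). The tetraspanin gene Cd9 was 69.6 CPM in WT CD, 188 in WT HFD and 148 in KO HFD. For these 3 genes the intervals of WT CD lay below those of both HFD libraries. In WT HFD 1 cell held 36.7% of the Fabp4 UMIs, and without mixed droplets Fabp4 stood at 8.35, 50.3 and 47.5 CPM.

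Plin2, a lipid droplet coat protein, was 126 CPM in WT CD, 330.5 in WT HFD and 430.0 in KO HFD (1.39 on the log2 scale, 1.15 to 1.64). Cd36 was 177 CPM in WT CD, 376 in WT HFD and 348 in KO HFD, and the cysteine protease gene Ctsb 517 CPM in WT CD, 989 in WT HFD and 889.7 in KO HFD. Both HFD libraries were again above WT CD, with Plin2 highest in KO HFD and Cd36 and Ctsb highest in WT HFD. Lgals3 (1594, 2369 and 2828 CPM) and Lpl (877, 1246 and 1467 CPM) were also lowest in WT CD, with WT HFD less than 1.5-fold above it and KO HFD higher than WT HFD. Apoe, at 491, 1292 and 694 CPM, was carried by few cells: the highest held 56.7% of its UMIs in WT CD and 38.3% in WT HFD. Cd63, a lysosomal tetraspanin outside the list, was 41.2, 213 and 176 CPM in WT CD, WT HFD and KO HFD, and Basp1, a membrane-associated signalling protein, 23.8, 115 and 116 CPM.

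**Figure D4:**
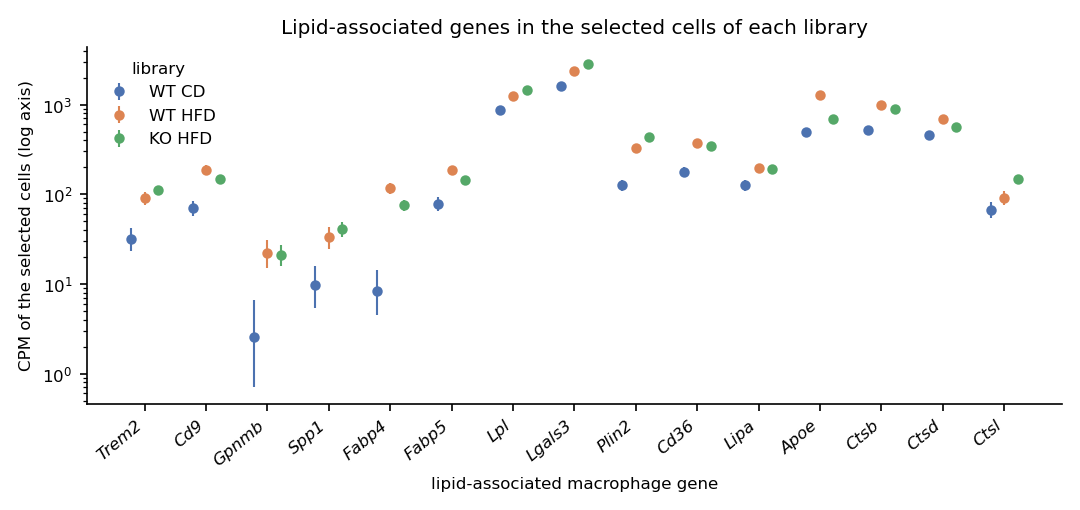
CPM of the 15 lipid-associated macrophage genes (horizontal) summed over the selected cells of each library, on a log axis, with exact 95% Poisson intervals. The WT CD point is the lowest of the 3 for every gene.

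The list is also given within the 3 groups of selected cells. In Mmp12 cells the list summed to 5282 CPM in WT CD, 9984 in WT HFD and 9416 in KO HFD, and 12 of 14 genes compared were at least 1.5-fold higher in WT HFD than in WT CD, where 11.8% of all 2617 genes were. In cells with Retnla and no Mmp12 it summed to 4337, 5917 and 4783 CPM, and 3 of 11 genes were higher, where 7.42% of all 2521 genes were. Trem2 was 29.9, 138 and 154 CPM in the Mmp12 cells, and 30.7, 37.3 and 24 CPM in the cells with Retnla and no Mmp12. WT CD holds 28 Mmp12 cells, and whether the diets differed more in one group of cells than in the other was not tested. In the cells with Ear2 alone the list summed to 4077, 7230 and 13756 CPM, highest in KO HFD, from 9, 14 and 26 cells. Among selected cells with Retnla, 7 of 12 genes were higher (4.4% of all genes), and without mixed droplets 9 of 13 (5.23% of all genes).

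Of the 6 inflammatory cytokine and enzyme genes compared, of 10 listed, 3 (Il1b, Il6 and Ptgs2) were at least 1.5-fold lower in WT HFD and 1, the inflammasome gene Nlrp3, higher (median -0.47). Over all genes 2.07% were lower and 4.61% higher. Without mixed droplets 1 of 4 was lower and none higher (median 0.02), where 76 of all 2446 genes were lower and 128 higher. Il1b, interleukin-1β, was 304 CPM in WT CD, 133 in WT HFD and 135 in KO HFD, and Ptgs2, the prostaglandin synthase COX-2, 50.3 CPM in WT CD, 19.4 in WT HFD and 25.2 in KO HFD. WT CD was highest for both, and the intervals of the HFD libraries overlapped. Outside that list, H2-DMb2, at 119.9, 51.7 and 69 CPM in WT CD, WT HFD and KO HFD, and the lectin gene Cd209a, at 74.8, 33 and 25.2 CPM, were among the 8 largest falls. In Mmp12 cells Cd209a ran the other way, with 3 UMIs in WT CD and 39 in WT HFD (5.97 and 46.9 CPM). Of 12 chemokine genes compared, of 16 listed, 2 were higher (Ccl3 and Cxcl16) and 1 lower (Cxcl10).

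Several of the largest values of this comparison came from single droplets. Igfbp5, C3, Mgp, Rarres2 and Igfbp6, genes of fibroblasts and mesothelium, stood among the 8 highest with 155, 88, 62.1, 101 and 90.5 CPM in WT HFD. Between 66.7 and 80.1% of their UMIs in that library lay in 1 barcode each. Without the 3 cells rich in Dcn, Col1a1 and Col3a1, few UMIs of Igfbp5, Mgp and Igfbp6 were left. The counts were 11 and 5, 4 and 3, and 11 and 7 in WT CD and WT HFD, too few to read a direction. Fabp4 then stood at 8.47 and 119.7 CPM and Trem2 at 31.3 and 92.5 CPM. On the lower side, 84.1% of the Ccl5 UMIs of WT CD lay in 1 cell, and Mucl1 came from 5 cells in WT CD and 5 in WT HFD. Gm26917, a noncoding RNA, was 365, 122 and 107 CPM, with 35.5% of its WT CD UMIs in 1 cell, and in Mmp12 cells it was higher in WT HFD, at 125 against 75.7 CPM. Of the 116 higher genes, 5 had at least 50% of their WT HFD UMIs in 1 cell.

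Cells with UMIs of cycling genes were present in every library. At least 2 UMIs of Mki67, Top2a, Birc5 and Cdk1 together were held by 11.6% (6.33 to 19.0) of selected cells in WT CD, 11.8% (6.45 to 19.4) in WT HFD and 9.24% (5.47 to 14.4) in KO HFD. The 3 intervals overlapped. With cells thinned to 3000 UMIs, at least 1 such UMI was held by 6.73, 11.9 and 10.6% of them, and WT CD was lowest. Of 5 cycling genes compared, 3 (Mki67, Top2a and Birc5) were at least 1.5-fold higher in WT HFD than in WT CD, where 4.61% of all 2515 genes were. In Mmp12 cells 4 of 5 were higher, where 11.8% of all 2617 genes were. In cells with Retnla and no Mmp12 none of 3 was higher, where 7.42% of all 2521 genes were, and Pcna, a replication clamp gene, was lower. Without mixed droplets 2 could be compared, none was higher, and Pcna was lower (140.2 CPM in WT CD, 86.9 in WT HFD).

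The genotype comparison set KO HFD beside WT HFD and shares the WT HFD library with the diet comparison, so a high or low value in WT HFD enters both. Of 2493 genes, 9 (0.361%) were at least 1.5-fold higher in KO HFD and 64 (2.57%) lower. Median-of-ratios scaling moved the median of all genes from -0.02 to 0.10 and gave 26 higher and 37 lower. Without mixed droplets 48 were higher and 76 lower. The number and balance of these genes therefore depended on the settings.

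Of 13 lipid-associated genes compared, 1 was higher and 2 lower in KO HFD, beside 0.361 and 2.57% of all genes, with a median of -0.11. Among Mmp12 cells 1 of 14 was higher (Ctsl) and 4 were lower (Spp1, Fabp4, Fabp5 and Apoe), where 5.79% of all 2541 genes were lower. Ctsl, a lysosomal cysteine protease, was 67, 91.2 and 147 CPM in WT CD, WT HFD and KO HFD, and Fabp4 and Apoe were the lower pair. Ctsl was less than 1.5-fold higher without mixed droplets (57.6, 70.2 and 90.8 CPM) and among cells with Retnla. Fabp4 was level between the HFD libraries without mixed droplets, at 50.3 and 47.5 CPM, while Apoe stayed lower in KO HFD, at 768 and 496 CPM. Without the highest cell of each library Apoe was less than 1.5-fold lower, at 797 CPM in WT HFD and 596 in KO HFD. Of 9 macrophage identity genes compared, 3 were at least 1.5-fold lower in KO HFD and none higher (median -0.43), and 2 after median-of-ratios scaling. C1qa was 1024 CPM in WT CD, 1232 in WT HFD and 741 in KO HFD (-0.73 on the log2 scale, -0.82 to -0.64, for KO HFD against WT HFD). C1qc was 608, 739 and 472 CPM and the actin-binding gene Aif1 101, 109 and 55.9 CPM. Over all selected cells KO HFD was lowest of the 3 libraries for each, and WT CD lay between it and WT HFD. For Aif1, WT CD was highest without the highest cell of each library (92.8, 73.1 and 52.6 CPM) and without mixed droplets (95.6, 88.0 and 41.3 CPM). Without the highest cell, Aif1 was less than 1.5-fold lower in KO HFD than in WT HFD. In Mmp12 cells KO HFD was below WT HFD for each, but WT CD was lowest, with C1qa at 380.3, 933 and 568 CPM in WT CD, WT HFD and KO HFD.

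Of 12 chemokine genes compared, 5 were lower in KO HFD and none higher (median -0.22), where 2.57% of all 2493 genes were lower and 0.361% higher. With median-of-ratios scaling 4 were lower and 1 higher, where 37 and 26 of all 2488 genes were. Without mixed droplets 3 were lower (Ccl3, Ccl24 and Pf4) and 1 higher, where 76 and 48 of all 2457 genes were. In cells with Retnla and no Mmp12 the same 3 were lower and none higher. The eosinophil attractant gene Ccl24 was 121 CPM in WT CD, 142 in WT HFD and 65.7 in KO HFD, with 40.5% of the WT HFD UMIs in 1 cell. Pf4 was 347, 511 and 285 CPM and Ccl3, a CC chemokine of activated macrophages, 59.9, 105 and 63.2 CPM. For Ccl3 the KO HFD level was close to that of WT CD, so WT HFD was the library that stood apart. The monocyte attractant Ccl7 and the membrane-bound chemokine gene Cxcl16 were the other 2 lower genes.

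Genes near the targeted locus were among the 8 highest and 8 lowest. Eif3j1, a translation initiation factor subunit on chromosome 2, was 133 CPM in WT CD, 149 in WT HFD and 22.6 in KO HFD (-2.72 on the log2 scale, -3.15 to -2.31), while its near-identical copy Eif3j2 was 5.16 CPM in WT CD, 11.6 in WT HFD and 83.6 in KO HFD. Reads of the 2 genes can be exchanged between them, so their single values are uncertain. Gatm, an enzyme of creatine synthesis, was 32.9, 27.8 and 70.5 CPM, the calcineurin B homologous gene Chp1 39.96, 47.9 and 88.7 CPM and the signal recognition particle gene Srp14 168, 161 and 257 CPM. Gatm, Chp1 and Srp14 also lie on chromosome 2, and in each KO HFD was the highest library.

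Within 10 Mb of Thbs1 (chr2:118111876-118127133, GRCm38), 6 of 22 genes compared were at least 1.5-fold apart (27.3%), 3 of them higher and 3 lower in KO HFD, against 67 of 2471 elsewhere (2.71%). The 6 were Gatm, Chp1, Srp14, Thbs1 itself, Oip5os1 and Eif3j1. Thbs1 was less than 1.5-fold lower in KO HFD without mixed droplets (64.9 CPM in WT HFD, 50.1 in KO HFD). In cells with Retnla and no Mmp12 it was higher in KO HFD (25.4 and 42.0 CPM). The KO label names a strain background with 129S2 in it, and a flanking 129 segment cannot be told apart from the loss of Thbs1 in these data. Elsewhere, Hmox1, heme oxygenase-1, was 189, 162 and 334 CPM, with 45.4% of the KO HFD UMIs in 1 cell, and without mixed droplets it was 172 CPM in WT HFD and 153 in KO HFD. Dcn and the stromal genes named above made up 6 of the 8 lowest genes. Without the 3 cells rich in Dcn, Col1a1 and Col3a1, the genes Mgp, C3 and Dcn were higher in KO HFD than in WT HFD, but on few UMIs. The counts were 3 and 12, 11 and 26, and 11 and 25 in WT HFD and KO HFD. Hist1h2ap, a replication histone gene, was 39.96, 81.5 and 20.1 CPM.

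**Figure D5:**
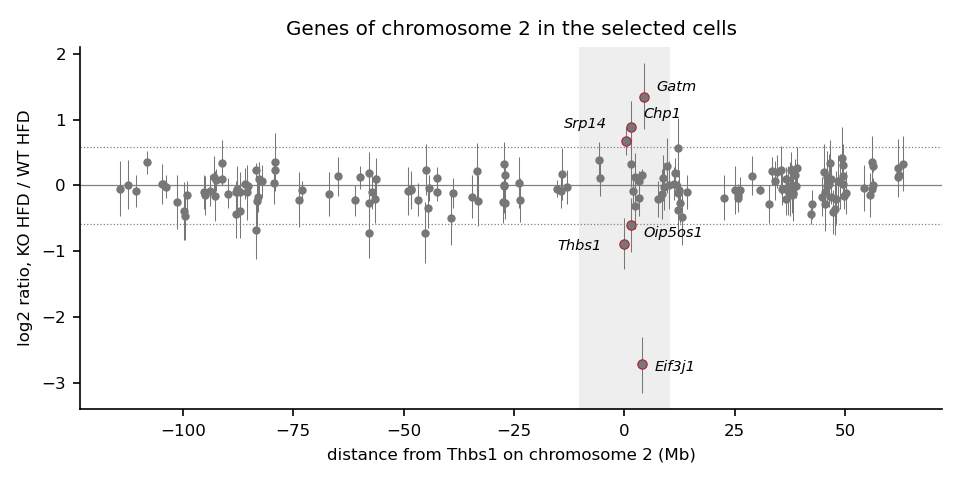
Log2 ratio of KO HFD to WT HFD in the selected cells (vertical, with 95% counting intervals) for genes of chromosome 2 that reached 50 CPM on either side, by distance from Thbs1 in Mb (horizontal); dotted lines mark 1.5-fold and the grey band 10 Mb on either side. Eif3j1 at -2.72 and Gatm at 1.34 lie furthest from 0.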

How the data were processed

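Gene counts (UMIs per gene and cell barcode) were used as deposited. Per the submitters' processing notes the authors made them with Cell Ranger 6.1.1, whose matrix header reads 6.1.0, against mm10, and deposited barcodes already called as cells. All 12275 barcodes were kept, no doublet caller was run, and no correction for free RNA was made. Each library's UMIs of a gene were added up within a class and scaled to CPM, and classes were compared by the mean of the 3 library CPMs. Genes with at least 50 CPM on either side were compared, at 2-fold between classes and 1.5-fold between libraries, outside the 10 rule genes. Where a side held 3 UMIs or fewer, the fold is a bound at a floor of 3 UMIs over the group. Intervals (95%) are exact Poisson for levels, Clopper-Pearson for shares and Newcombe for differences of shares.

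Named genes were the rule's genes and markers, Thbs1, the 20 that led every other leukocyte class of at least 50 cells, the 10 highest and 10 lowest against Folr2 Cd163 macrophages, the 8 largest rises and falls between libraries, and examples from gene lists; a few genes that met these rules are not reported here. The cells, lists and classes were chosen with earlier results of these data known. Alternatives covered the rule's limits, depth, scaling, the CPM minimum, mixed droplets and single libraries. The formula for 1.5-fold calls between libraries was tried on simulated counts with known folds, and the other steps were not tested in this way. Python 3.11.15, numpy 2.4.6, scipy 1.17.1 and matplotlib 3.10.9 were used.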

Additional observations from a re-analysis of the deposited data

How the results depend on the processing

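With 1 library per group no test was possible, and the limits of depth are those of the counting intervals. No paired analysis was possible because each group is 1 library. A rule on Mmp12 and Retnla alone gave 3.55% of all and 28.3% of Lyz2 barcodes in KO HFD. No Folr2 or Cd163 UMI gave 2.23, 2.38 and 3.32% of all and 32.7, 19.6 and 26.5% of Lyz2 barcodes in WT CD, WT HFD and KO HFD, and fewer than 4 gave 47.3% in WT CD. Thinning to 3000 UMIs gave 3.53% of all and 47.1% of Lyz2 barcodes in WT CD, and leaving out mixed droplets 3.33% of all. WT HFD was then 3.34 and 3.16% of all. At least 1 Retnla UMI, chosen after seeing the data like the next 2 settings named so, gave 2.47, 2.28 and 3.39% of all in WT CD, WT HFD and KO HFD, and 18.7 and 27.1% of Lyz2 barcodes in the HFD libraries. Under these 3 settings, and at 5 or more UMIs of Mmp12, Retnla and Ear2 (2.57 and 2.52%), the share of all barcodes in WT CD came to lie above WT HFD.

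A minimum of 10 CPM gave 525 genes higher and 1099 lower against Folr2 Cd163 macrophages, 412 and 597 against other leukocytes, 909 and 385 for WT HFD against WT CD, and 216 and 702 for KO HFD against WT HFD. Leaving out 1 library in turn gave 231 to 244 genes higher and 329 to 370 lower against Folr2 Cd163 macrophages. With Mmp12 cells alone the library counts were 309 and 142, and 38 and 147. For KO HFD against WT HFD, median-of-ratios scaling gave 26 and 37, leaving out mixed droplets 48 higher, cells with Retnla 16 higher, leaving out the highest cell of each gene (chosen after seeing the data) 37 lower, and leaving out the 3 cells with 10 or more UMIs of Dcn, Col1a1 and Col3a1 (chosen after seeing the data) 14 higher.

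Some log2 ratios turned sign. Without mixed droplets these were Igfbp5 (-1.05, a bound) and Igfbp6 (-0.50) for WT HFD against WT CD. These 2 rested on 7 and 2 UMIs and on 8 and 5 UMIs in WT CD and WT HFD, so their direction is uncertain. For KO HFD against WT HFD they were Hmox1 (-0.17), C3 (0.27, from 9 and 22 UMIs in WT HFD and KO HFD) and Dcn (0.34, from 7 and 18 UMIs). In Mmp12 cells they were Gm26917 (0.72) and Cd209a (2.97) for the diets. Without the 3 stromal-rich cells they were Igfbp5 (-1.11), Mgp (-0.39) and Igfbp6 (-0.62) for the diets, and Mgp (1.13), C3 (0.38) and Dcn (0.32) for the genotypes. These genes then held at most 26 UMIs in a library, and Mgp 3 in WT HFD, so their directions are uncertain. The causes were not tested. Under median-of-ratios scaling and the 10 CPM minimum all 32 named library ratios kept their direction.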
